A study of Mus musculus with 8 samples.

Results

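The mouse kidney line mK4 was described here on its own, from the 4 of the 8 samples of the series that carry its name: 3 RNA libraries, whose counts fill 3 columns of the expression table, and 1 ATAC-seq library, whose peaks make up the open chromatin list. The samples are annotated as wild type and untreated, and the cells were grown in DMEM with fetal bovine serum. The RNA libraries carry the numbers 1 to 3 and are named duplicates. No source used here says that they came from separate cultures, so a spread between them may be technical. The ATAC-seq library has no replicate. mK4 is a single line, and every value below is a value of that line under that 1 condition.

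mK4 cells stand for metanephric mesenchyme on its way to becoming an epithelium. In the developing kidney, mesenchyme next to the ureteric bud condenses, forms renal vesicles under Wnt9b, Wnt4 and Fgf8 signals, and folds into nephron tubules. During that change cells assemble cell-cell junctions and a basement membrane. ATAC-seq marks open chromatin by where a transposase can cut DNA, and promoters of active genes usually lie in such regions.

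Gene rows of the 3 libraries held 134359330, 146187601 and 142181735 counts. Mature miRNA rows held 3191483, 6755311 and 6255314 counts, and circular RNA rows 8578, 9439 and 6725. Levels are given as CPM, the count scaled to a fixed total of 1000000 counts of the same class of row, as mean ± SD over the 3 libraries (n = 3 throughout). A CPM is a share of reads and grows with transcript length, so ranks by CPM rank read shares, not molecules. Gene rows correlated at Pearson's r of 0.987 to 0.990 between libraries over log2(CPM + 1), miRNA rows at 0.988 to 0.993 and circular RNA rows at -0.111 to 0.123, values across rows, which are not independent replicates. Each pair of libraries gave 21813 to 22209 gene rows and 427 to 458 circular RNA rows for r. In circular RNA rows 3 counts stand for 318 to 446 CPM, against 0.0205 to 0.0223 CPM in gene rows. The r of circular RNAs thus depends strongly on rows with few or no counts and is not comparable to the others. Of 55558 gene rows, 26917 had a count and 13893 reached 1 CPM in all 3 libraries. Among the latter were 11218 of 21896 protein-coding genes (51.2%); 7711 of these (35.2% of all) reached 10 CPM and 1838 (8.39%) reached 100 CPM. These shares are the background for the gene lists below.

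All 4 genes that mark the line were read in every library. Cdh6, a cadherin of the renal vesicle and early proximal tubule, had 233584, 255617 and 242022 counts in libraries 1, 2 and 3. That is 1730 ± 24.4 CPM, place 23 among protein-coding genes. Cxadr, a tight junction protein that is also the coxsackievirus and adenovirus receptor, had 58855, 69957 and 63515 counts (454 ± 21.3 CPM, place 256). The read share of Cdh6 was thus among the highest of the line, with Cxadr well below it. Pkhd1, which encodes the cilium protein fibrocystin, had 31183, 35032 and 35739 counts (241 ± 9.71 CPM, place 729). Pax2, a transcription factor needed for the mesenchyme to become epithelium, had 3806, 4155 and 5206 counts (31.1 ± 4.76 CPM, place 4988). Pax2 was higher in library 3 than in the other two, while the libraries were close for the other genes.

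**Figure D1:**
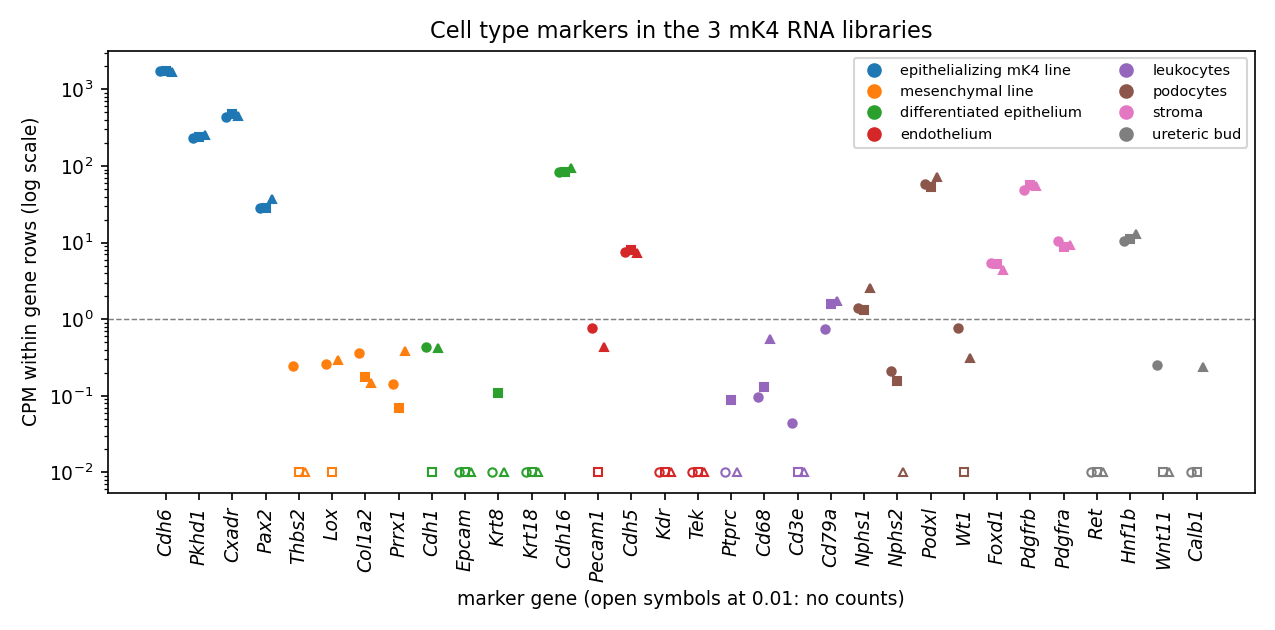
CPM of marker genes of the line and of other cell types in each of the 3 mK4 RNA libraries, on a log axis, with 1 symbol per library, a dashed line at 1 CPM and open symbols at 0.01 for no counts. Cdh6, Cxadr, Pkhd1 and Pax2 lie between 28.3 and 1749 CPM in every library, and Epcam, Krt18, Kdr, Tek and Ret are at 0.

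Markers of other cell types were low for some types and not for others. Summed over 4 genes of a mesenchymal line (Thbs2, Lox, Col1a2 and Prrx1) the level was 0.246 to 1.00 CPM per library, and no member reached 1 CPM in all 3. Other mesenchymal genes were high, among them Fn1 (1257 ± 41.7 CPM) and Vim (240 ± 6.79 CPM), so these 4 do not stand for mesenchymal expression as a whole. Leukocyte markers summed to 0.886 to 2.28 CPM, and endothelial markers to 7.79 to 8.19 CPM, of which Cdh5, the VE-cadherin gene, held 7.62 ± 0.402 CPM while Kdr and Tek were at 0. Podocyte markers summed to 54.5 to 74.5 CPM, mostly Podxl (61.2 ± 9.49 CPM), which codes for a surface sialomucin. Stromal markers summed to 65.2 to 69.9 CPM, mostly the growth factor receptor gene Pdgfrb (53.1 ± 3.51 CPM). Of 5 markers of finished epithelium, only Cdh16, the kidney-specific cadherin, reached 1 CPM in all libraries (87.4 ± 5.74 CPM), whereas Epcam and Krt18 had no counts, Krt8 had counts in library 2 alone and Cdh1 (E-cadherin) averaged 0.285 ± 0.247 CPM. In bulk RNA, few cells with much of an RNA and many cells with little of it cannot be told apart.

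The rows with the most reads were non-coding RNAs made by RNA polymerase III and 1 protein-coding row. Rn7sk, the 7SK RNA that holds back transcription elongation, had 33532 ± 1085 CPM. The rows for 7SL, the RNA of the signal recognition particle, had 21832 ± 983 CPM (Rn7s1) and 20873 ± 2215 CPM (Rn7s2); these are near-identical copies, so their sum, 4.27 ± 0.149% of gene counts, is firmer than the split. Rpph1, the RNA of RNase P, had 13246 ± 996 CPM, and Rmrp, the RNA of RNase MRP, had 4010 ± 182 CPM. Below them came Gm47299, annotated as a miRNA gene (4006 ± 860 CPM), the lncRNA rows Gm26917 (3379 ± 225 CPM), Gm20634 (2353 ± 312 CPM) and Gm42418 (2089 ± 165 CPM), and Scarna10, a guide RNA of the Cajal body (1405 ± 86.4 CPM). Per kb of length, which can be given for rows without introns, 7SK stood at 101001 ± 3269 CPM per kb, RNase P RNA at 40757 ± 3066 and RNase MRP RNA at 14583 ± 664. The 10 rows with the most counts held 14.5 ± 1.07% of gene counts, the top 100 held 27 ± 0.862%, and 661 rows held 50% of them.

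Ccnb1ip1, a ubiquitin ligase gene known for its part in meiotic crossing-over, led the protein-coding rows with 6003363, 4233695 and 5452130 counts (37329 ± 7910 CPM). That is 3.73 ± 0.791% of all gene counts, and the lowest library had 2.90% where the highest had 4.47%. The next protein-coding row, Eef1a1, had 3595 CPM. On GRCm38 the gene spans chr14:50789249-50795728, and Rpph1 lies 11.7 kb away at chr14:50807447-50807771. No peak lay within 1 kb of the listed start of Ccnb1ip1, whereas a peak of fold 7.50 covered Rpph1 (chr14:50807382-50808008). Whether reads of another transcript were counted in the Ccnb1ip1 row was not tested.

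The 19 protein-coding rows that followed lay between 1796 and 3595 CPM and fell into a few groups. Eef1a1, the elongation factor that brings tRNAs to the ribosome, had 3595 ± 235 CPM, and S100a6, a calcium-binding protein, had 3072 ± 191 CPM. Golph3, a Golgi protein that sorts glycosyltransferases, had 390342, 451301 and 416394 counts (2974 ± 99.0 CPM), and Kdelr2, which returns escaped proteins to the endoplasmic reticulum, had 2352 ± 30.9 CPM. Col4a5 and Col4a6, which encode collagen IV chains of basement membranes and sit head to head on chromosome X, had 2749 ± 85.8 and 2225 ± 79.6 CPM. Histone genes filled 5 of the 19 places: Hist1h4c (2740 ± 121 CPM), Hist1h2bc, Hist1h4n, Hist1h4f and Hist1h4h, the last at 1796 ± 101 CPM. The others were Atrnl1 (2725 ± 138 CPM), the serine protease gene Prss16 (2535 ± 749 CPM), the glycolytic enzyme gene Pgk1 (2409 ± 141 CPM), mt-Co1 of respiratory complex IV (2398 ± 108 CPM), Drosha, Tusc3 of the oligosaccharyltransferase (1897 ± 70.9 CPM), Notch2 and the scaffold gene Ahnak (1820 ± 47.3 CPM). The order within this set is loose: of 20 pairs of neighbours in the order, the values of 17 overlapped between libraries and 3 did not. Of the 100 protein-coding genes with the most reads, 87 were in the top 100 of every library.

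Histone rows together held 3.41 ± 0.258% of gene counts, and 62 of 67 reached 1 CPM in all libraries. H4 genes alone held 1.57 ± 0.0673%. These mRNAs lack a poly(A) tail, and the libraries were made by removing ribosomal RNA and not by poly(A) selection. Per kb of its single exon, Hist1h4c stood at 7306 ± 323 CPM per kb, the highest of the 11 H4 genes with a value per kb, and Hist1h4i at 803 ± 402, the lowest of them. The H4 genes code for nearly the same protein, and counts can be split between copies. Mitochondrial mRNAs held 0.336 ± 0.0205% of gene counts and were read very unequally, although all but 1 of them are cut from 1 long transcript. Here mt-Co1 reached 1552 ± 70.0 CPM per kb, mt-Co3 318 ± 16.0 and mt-Nd3 of complex I 6.01 ± 1.18. Whether reads that match more than 1 place in the genome were lost from some of these rows was not tested. The values therefore stand for counted reads, not for mRNA levels. Cytosolic ribosomal protein genes held 1.10 ± 0.0252%.

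Genes of the nephron lineage were unevenly read. Of 21 nephron progenitor genes, 9 reached 1 CPM in all libraries, 4 reached 10 and 2 reached 100, below the background share at 1 and 10 CPM. Slit2, a secreted guidance cue, led with 286 ± 5.50 CPM, followed by Eya1 (194 ± 35.9 CPM). Six2, the factor that keeps progenitors from differentiating, had no counts, and neither had Hoxc11, Hoxd11, Crym, Tmem100 or Uncx. Of 20 genes of induced mesenchyme and renal vesicle, 10 reached 1 CPM, 5 reached 10 CPM and Cdh6 alone reached 100 CPM. This list was near the background share at 1 CPM (51.2%) and below it at 10 CPM (35.2%) and 100 CPM (8.39%). Pax8, which acts with Pax2, had 40.9 ± 4.84 CPM and Ccnd1, a G1 cyclin, had 28.6 ± 1.06 CPM. Wnt4, the signal that drives epithelialization, had 12.7 ± 1.24 CPM, while Fgf8 and Cdh4 were at 0.

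Of 24 tubule genes, 8 reached 1 CPM and the same 8 reached 10 CPM. That is 33.3%, against 51.2% and 35.2% of all protein-coding genes. The highest were Lrp2 (271 ± 18.7 CPM), the megalin receptor of the proximal tubule brush border, then Pkhd1 and the water channel gene Aqp1 (231 ± 12.2 CPM). The transporters Slc34a1, Slc12a3, Slc22a6 and Kcnj1, the thick limb protein Umod, the enzyme Miox and the factor Hnf4a were at 0. Of 20 ureteric bud genes, 10 reached 1 CPM, near the background share, and none reached 100, below it. Etv5, a target of Gdnf and Fgf signals, led with 57.3 ± 2.94 CPM, then Wfdc2 (30.5 ± 6.33 CPM) and Etv4 (26.8 ± 3.84 CPM), whereas the Gdnf receptor Ret, Wnt9b and Foxi1 had no counts. Of 16 stromal genes, 9 (56.2%) reached 1 CPM, also near the share of all protein-coding genes. Ntn1 (294 ± 223 CPM, set by 1 library) and Pdgfrb were among the highest, and Tcf21, Ren1, Tagln and Penk were at 0. Of 17 podocyte genes, 10 (58.8% against 51.2%) reached 1 CPM. The leading ones were widely expressed genes: Col4a5, Cd2ap (150 ± 22.4 CPM) and Actn4 (74.0 ± 2.54 CPM), with Ptpro at 0. The endothelial and leukocyte lists had 4 of 14 members each (28.6%) at 1 CPM and none at 10 in all libraries. The highest were Flt1 (10.6 ± 3.06 CPM), Cdh5 and Eng (2.69 ± 0.453 CPM), and Cd14 (4.76 ± 0.326 CPM), Lyz2 (2.66 ± 0.886 CPM) and Coro1a (2.09 ± 0.907 CPM). No counts were found for Kdr, Tek, Tie1, Sox17, Sox18, Vwf, Adgre1, Itgam and Tyrobp.

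Junction and mesenchymal genes were read side by side. Of 32 epithelial junction and keratin genes, 10 reached 1 CPM, 31.2% against 51.2% of all protein-coding genes. Tjp1 (ZO-1, 553 ± 76.2 CPM), Cxadr and Cldn1 (123 ± 3.85 CPM) led. The 10 at 0 were Krt18, Epcam, Cldn3, Cldn4, Cldn6, Cldn7, the desmosomal Dsg2 and Dsc2, Marveld3 and the repressor Ovol2. Of 20 mesenchymal genes, 11 (55.0%) reached 1 CPM and 6 reached 100 CPM, 30.0% against 8.39%. Fn1 (fibronectin) had 1257 ± 41.7 CPM, S100a4 had 899 ± 30.5 and Cdh2 (N-cadherin) had 590 ± 23.8. Vim, the intermediate filament vimentin, had 240 ± 6.79 CPM, and Twist2 had 287 ± 7.32 CPM while Twist1 was at 0.

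Basement membrane genes were above the background at each level. Of 21 listed basement membrane genes, 16 reached 1 CPM and 10 (47.6%) reached 100 CPM. Within this list, which does not hold Col4a6, Col4a5 was followed by Hspg2, the perlecan core protein (626 ± 64.8 CPM), Col4a1 (530 ± 108 CPM) and the laminin chain Lamc1 (506 ± 87.1 CPM). Nid1, which links laminin to collagen IV, and Frem1 had no counts. The 6 collagen IV genes together held 0.599 ± 0.0263% of gene counts.

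A receptor or co-receptor gene had the highest read share in each of the lists of inductive pathways. In the Notch list 9 of 19 genes (47.4%) reached 1 CPM, near the 51.2% of all protein-coding genes. Notch2, the receptor that proximal tubule formation depends on, had 1862 ± 58.6 CPM, Rbpj, the DNA-binding partner of all Notch receptors, had 177 ± 5.21 CPM, and Notch1 had 50.8 ± 4.97 CPM. The ligand Jag1 had 4.63 ± 0.384 CPM, and Dll3 and the targets Hes5 and Heyl were at 0. In the Wnt list 23 of 30 reached 1 CPM and 6 reached 100, above the background shares of 51.2% and 8.39%. The co-receptors Lrp6 (301 ± 15.2 CPM) and Lrp5 (157 ± 33.1 CPM) and the secreted antagonist Sfrp1 (145 ± 6.17 CPM) led, and Wnt9b and the antagonist Dkk1 were at 0. In the FGF list 13 of 20 (65.0%) reached 1 CPM. Fgfr2 had 218778, 208875 and 258000 counts (1624 ± 193 CPM), the feedback inhibitor Spred1 156 ± 72.4 CPM and Etv5 the next value, while Fgf8, Fgf9 and Fgfr4 were at 0.

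Lists of general cell functions lay above the background share at 1 CPM. All 27 proliferation genes reached 10 CPM, led by the topoisomerase Top2a (500 ± 31.4 CPM), the spindle motor Kif11 (484 ± 19.9 CPM) and the helicase subunit Mcm6 (389 ± 18.5 CPM). All 22 cilium and cystic disease genes reached 1 CPM and 21 reached 10 CPM. Pkhd1 and Ift80 (168 ± 11.5 CPM), an intraflagellar transport gene, reached 100 CPM. That is 9.09% of the list, near the 8.39% of all protein-coding genes. Pkd1 and Pkd2, the polycystin genes, had 74.7 ± 11.6 and 64.1 ± 4.15 CPM. Of 25 cytoskeleton genes 24 reached 1 CPM, with Actb (716 ± 15 CPM) and Vcl (492 ± 9.19 CPM) among the highest and Tpm2 at 0. Of 24 chaperones 18 reached 100 CPM, led by P4hb (926 ± 61.4 CPM), Cct6a (633 ± 39.1 CPM) and Canx (562 ± 28.5 CPM). All 76 listed ribosomal protein genes reached 1 CPM, led by Rpl3 (1122 ± 27.3 CPM), Rplp0 (579 ± 18.2 CPM) and Rps4x (469 ± 32.3 CPM). Of 20 glycolysis genes 10 reached 100 CPM, led by Pgk1, Pkm (547 ± 25.1 CPM) and Ldha (453 ± 24.9 CPM). Of 22 translation factors 8 did so, led by Eef1a1, Eif3b (362 ± 22.1 CPM) and Eif4b (338 ± 6.88 CPM), and Eef1a2 was at 0. Of 22 chromatin genes 14 did so, led by the cohesin gene Rad21 (347 ± 5.44 CPM), Smarca4 (285 ± 25.2 CPM) and Dnmt1 (270 ± 21.3 CPM).

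MicroRNAs are short RNAs that guide Argonaute proteins to mRNAs, mainly by pairing of the seed, bases 2 to 8. Below are mature sequences of those that held the most miRNA counts, with the seed in capitals, from the RefSeq annotation of GRCm38.p6. The set shows the leader, the pair read from opposite strands of 1 locus, the members of the seed shared by miR-99b, miR-100 and miR-99a, and a let-7.
miR-21a-5p: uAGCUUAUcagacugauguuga
miR-10a-5p: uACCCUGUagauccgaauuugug
miR-129-5p: cUUUUUGCggucugggcuugc
miR-129b-3p: cAAGCCCAgaccgcaaaaagauu
miR-99b-5p: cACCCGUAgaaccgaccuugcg
miR-100-5p: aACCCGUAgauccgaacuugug
miR-99a-5p: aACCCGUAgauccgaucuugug
let-7i-5p: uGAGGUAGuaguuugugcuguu

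miR-21a-5p had 912895, 1947848 and 1758098 counts, and its share of miRNA counts was 28.5 ± 0.372%. It is abundant in many cultured and growing cells. Library 1 had the fewest counts, as it did for all miRNAs together, while the shares were close. miR-10a-5p, encoded in the Hoxb cluster, held 9.82 ± 0.805%. miR-30d-5p, which was named in the table but not matched to a sequence, held 5.16 ± 0.791%, then came miR-99b-5p (4.06 ± 0.0942%), miR-30a-5p (2.5 ± 0.215%), miR-182-5p (2.34 ± 0.358%), miR-26a-5p (2.23 ± 0.233%), miR-100-5p (1.86 ± 0.0434%), let-7i-5p (1.81 ± 0.146%), miR-27b-3p (1.78 ± 0.372%), miR-125b-5p (1.78 ± 0.0741%), miR-99a-5p (1.52 ± 0.138%) and miR-183-5p (1.23 ± 0.0340%). Only 4 rows held 50% of miRNA counts and 10 held 72.1 ± 1.74%, against 661 rows for 50% of gene counts. Of the 15 with the most counts, 14 were in the top 15 of every library.

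**Figure D2:**
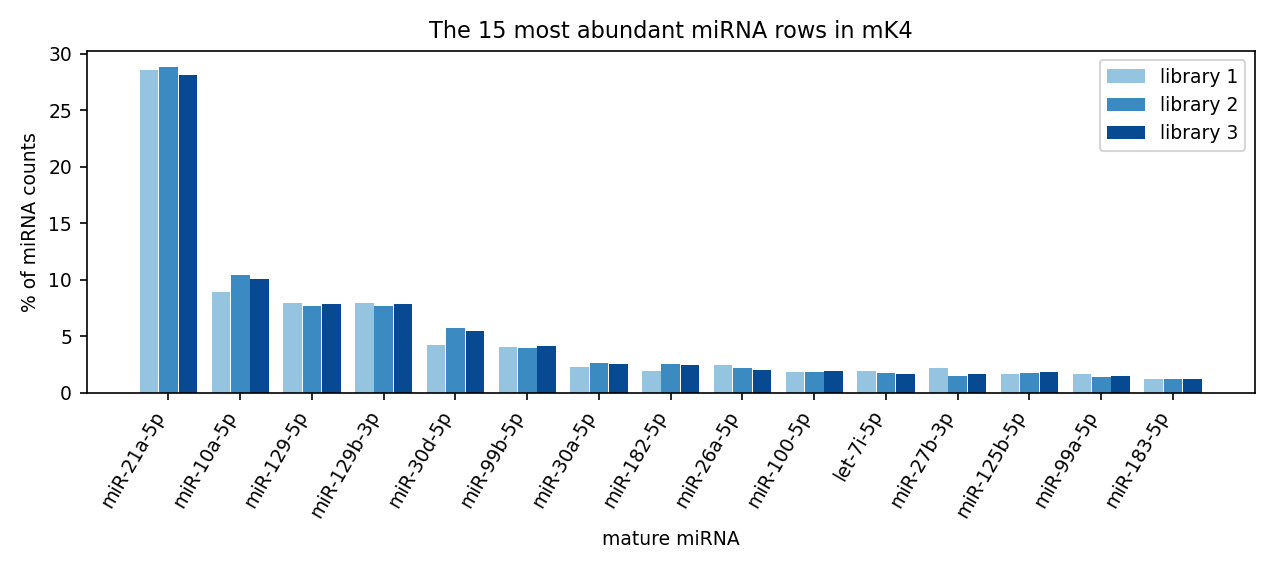
Share of miRNA counts (percent) of the 15 most abundant mature miRNAs, with 1 bar for each of the 3 mK4 libraries. miR-21a-5p stands at 28.1 to 28.8%, miR-10a-5p at 8.92 to 10.5%, and miR-129-5p and miR-129b-3p at nearly equal heights.

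miR-129-5p and miR-129b-3p had 254223, 517923 and 493203 counts, and 253764, 516445 and 491902 counts. The values were almost the same library by library, and the second was 99.8% of the first on average. The 2 lie on opposite strands of chr2:94241419-94241439 and chr2:94241420-94241442 and share 20 positions, so the printed sequences are close to reverse complements of each other. In all, 19 pairs of listed miRNAs shared at least 15 positions on opposite strands. Among those with counts above 1000 in library 1, the second reached over 90% of the first for miR-24-3p and miR-3074-5p (99.9%), miR-24-2-5p and miR-3074-2-3p (99.1%) and miR-374b-5p and miR-374c-3p (99.6%). It did so for miR-9-5p and miR-9b-3p (98.9%) at lower counts. It did not, for example, for miR-126a-3p and miR-126b-5p (0.0570%) or for miR-30e-3p and miR-30f (19.4%). No source used here says how a read was assigned to a strand, and whether reads of 1 strand were counted in both rows was not tested. The pair takes 2 of the first 4 places in the order, so the share of miR-129b-3p (7.82 ± 0.158%) is to be read with that limit.

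Summed by seed over rows with a RefSeq sequence (951 of 1196 rows, 92.8% of miRNA counts), the order changed below the leaders. The AGCUUAU seed of miR-21a held 28.5 ± 0.372% and ACCCUGU of miR-10a and miR-10b held 9.82 ± 0.805%. ACCCGUA, shared by miR-99b, miR-100 and miR-99a, held 7.45 ± 0.183%, more than any of the 3 alone. GAGGUAG, shared by 9 let-7 family rows, held 5.69 ± 0.535%. GUAAACA of miR-30a, miR-30c and miR-30e held 3.28 ± 0.282%, without miR-30d. 5p arms took 81.0 ± 1.29% of miRNA counts and 3p arms 18.8 ± 1.26%. The other arm was rare beside most leaders. Of the counts of both arms of its own hairpin, miR-21a-3p held 0.00336 ± 0.00167% and miR-99b-3p held 3.82 ± 0.287%.

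Several of the abundant miRNAs lie close together or inside genes. miR-182-5p and miR-183-5p lie within 3.77 kb on chromosome 6, miR-99a-5p and let-7c-5p within 0.754 kb on chromosome 16, and miR-99b-5p and miR-125a-5p within 0.647 kb on chromosome 17. miR-21a lies at chr11:86584120-86584141, within the RefSeq span of Vmp1, an autophagy gene of the endoplasmic reticulum that had 1599 ± 17.1 CPM (place 28 among protein-coding genes). The hairpin of let-7f-2 lies in the ubiquitin ligase gene Huwe1 (1351 ± 42.0 CPM). miR-10a lies in the span of Hoxb3, which had 8.49 ± 1.59 CPM, and miR-99b in that of Spaca6, with 14.7 ± 0.539 CPM, so host and miRNA read shares were not alike in rank.

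Genes that make and use miRNAs were mostly well read: 14 of 16 reached 1 CPM and 4 reached 100 CPM. Both lie above the background shares of 51.2% and 8.39%. Drosha, the nuclease that cuts miRNA hairpins from primary transcripts, stood apart with 289240, 328516 and 330272 counts (2241 ± 85.2 CPM, place 12). Its partner Dgcr8 had 18.2 ± 2.10 CPM, the export factor Xpo5 66.2 ± 5.35 CPM and the nuclease Dicer1 33.6 ± 1.78 CPM. Ago2, the slicing Argonaute, had 217 ± 19 CPM and the Argonaute partner Tnrc6b had 137 ± 9.49 CPM. Drosha lies in the region of raised ATAC-seq background described at the end.

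Circular RNAs, exons joined back to front, had few counts, and as given above their rows correlated at 0.123 or less between libraries. The highest were novel_circ_0001873 with 192, 211 and 219 counts, mmu_circ_0001704 with 130, 166 and 147, and mmu_circ_0001624 with 132, 129 and 116. The 7 that followed (mmu_circ_0000604, mmu_circ_0000681, mmu_circ_0000635, novel_circ_0002130, mmu_circ_0001683, novel_circ_0001812 and mmu_circ_0001335) had means of 71.0 to 103 counts. Of 2250 rows, 1305 had a count in mK4, 795 of these in 1 library only and 213 in all 3, and 12 had at least 50 counts in every library. Host genes were not used here because the table does not pair these names with genes.

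The spread between libraries depended on class and on depth. Measured as the coefficient of variation (CV, SD over mean of CPM) and taken as the median over rows with a mean of at least 10 counts, it was 17.1% for genes, 15.7% for miRNAs and 39.2% for circular RNAs. At 10 to 100 counts the median CV was 65.1% for genes, 29.0% for miRNAs and 39.4% for circular RNAs, where counting error alone gives 17.9%, 19.2% and 23.8%. At 100 to 1000 counts it was 22.6% for genes and 12.5% for miRNAs. Above 10000 counts it was 6.20% for genes and 9.11% for miRNAs. So gene rows spread more than miRNA rows of like counts up to 1000 counts, and less above 10000. In every bin the median lay above counting error. edgeR's common biological coefficient of variation, a square root of the shared dispersion, was 0.638 for genes, 0.187 for miRNAs and 0.612 for circular RNAs. The median of edgeR's values for single rows was 0.290, 0.182 and 0.583, in that order. For genes the common value thus lay well above that of the typical row.

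**Figure D3:**
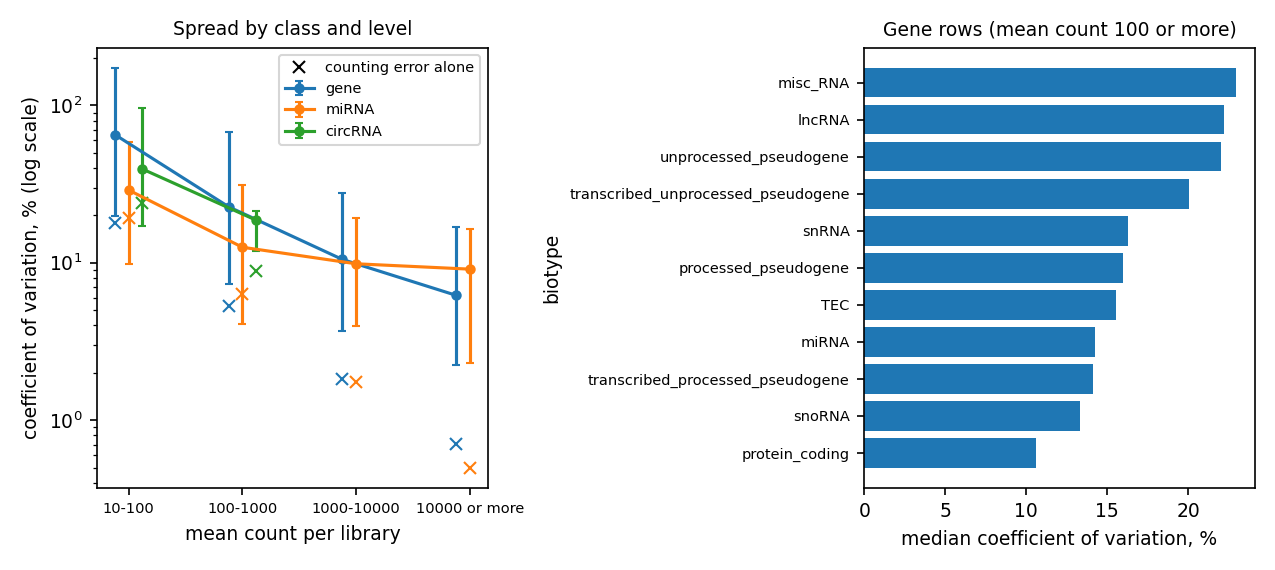
Left, coefficient of variation over the 3 mK4 libraries (percent, log axis) by mean count per library, with points for the median, bars from the 10th to the 90th percentile of rows and crosses for counting error alone. Right, the median by biotype of gene rows with a mean of at least 100 counts, 10.6% for protein-coding genes and 23.0% for misc_RNA. On the left, gene rows fall from 65.1% at 10 to 100 counts to 6.20% above 10000 counts, and the medians of all classes lie above counting error.

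Biotypes differed too. Among rows with a mean of at least 100 counts the median CV was 10.6% for protein-coding genes, 13.3% for snoRNAs, 16.0% for processed pseudogenes, 22.2% for lncRNAs and 23.0% for other small RNAs annotated as misc_RNA. Of 2003 protein-coding genes with a mean of at least 100 CPM, 1564 (78.1%) varied by under 10% and 23 by over 50%. The steadiest were Atp9b, Eif1ax, Cdc16, Tmed2 and Abi1, with CVs of 0.0180% to 0.263%, below what counting alone gives for such counts on average.

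The least steady genes differed in 1 library. Hist1h2be, a histone H2B gene, had 3382, 450990 and 2833 counts, so that its mean of 1043 CPM describes no library. Hist2h3b had 25, 29126 and 29028 counts, Fndc3b had 38554, 221927 and 52282, the netrin gene Ntn1 had 20778, 25662 and 78299, and Nadk2 had 52618, 19701 and 18665. Golph3l, Tmem164, Fam168a, the integrin gene Itgav and Sept2 completed the set of 10, with CVs of 64.8% to 86.2%. Library 2 was the odd one for Hist1h2be and Fndc3b, library 1 for Hist2h3b and Nadk2, and library 3 for Ntn1.

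Jumps of this kind were more frequent among lncRNAs. A ratio of over 20 between the highest and the lowest library, with at least 500 counts in the highest, was met by 67 of 10566 protein-coding genes (0.634%) and by 50 of 1198 lncRNAs (4.17%), and 52 of the 67 had a library with 0 counts. Adnp, a chromatin regulator gene, had 15007, 495 and 18587 counts, while Gm20716, a row that starts at the same base (chr2:168180965) and spans Adnp, had 3166, 36499 and 0. The library low for Adnp was thus the one high for the overlapping row. Epo, the gene of the hormone erythropoietin, had 0, 10378 and 3981 counts. No source used here says how reads in overlapping rows were counted, and the part of counting in the jumps was not tested.

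The ATAC-seq list held 34756 peaks, of which 34710 lay on chromosomes 1 to 19, X and Y. The peaks covered 14383 kb. Strength is given as the authors' fold enrichment over the caller's local background, with a median of 4.72, quartiles of 3.74 and 6.44 and a range of 1.44 to 32. The median length was 345 bp, from 200 to 3603 bp. The median height, the number of fragments or cut sites piled up at the summit as solved from the caller's fold and p, was 33. There is 1 library, so no value on peaks has a replicate check.

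Peaks near listed gene starts were stronger and longer than the rest. Of 33574 peaks on chromosomes with listed starts, 9452 (28.2%) had their summit within 1 kb of a listed RefSeq gene start. The 95% Wilson interval was 27.7 to 28.6%, which covers counting error only. The median fold of these near peaks was 5.45 and their median length 457 bp, against 4.51 and 317 bp farther away. Of the 33574 peaks, 42.8% lay farther away inside a gene and 29.1% between genes. Some genes lack a listed start, so the farther peaks include any at unlisted starts. The peak at the edge of the Cxadr span (chr16:78301268-78301874) was thus counted as 64697 bp from a start. Strength did not rise evenly with closeness: the median fold was 5.80 within 0.5 kb of a start, 4.09 at 0.5 to 1 kb and 4.71 beyond 200 kb. Of the 1000 strongest peaks by fold, 549 lay within 1 kb of a start, and of the strongest 100, 64 did.

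**Figure D4:**
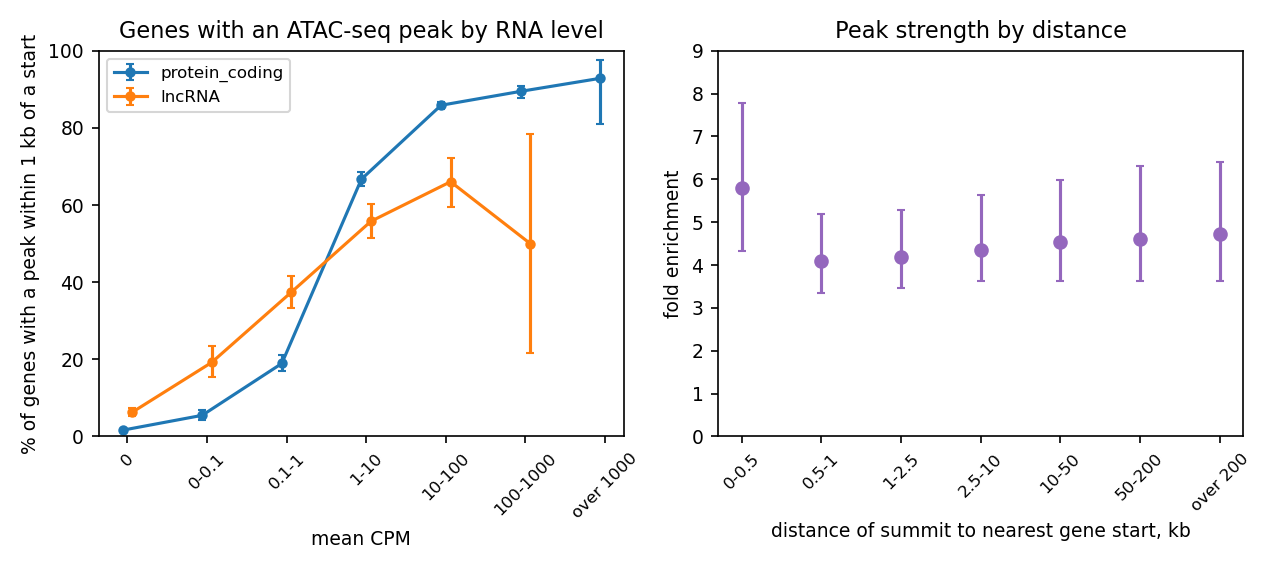
Left, share of protein-coding genes and lncRNAs (percent, with 95% Wilson intervals) that have a peak of the single mK4 ATAC-seq library within 1 kb of a start, by mean CPM, from 1.61% of protein-coding genes at 0 to 92.9% above 1000 CPM. Right, fold enrichment of peaks (median and quartiles) by distance of the summit to the nearest listed gene start in kb. Medians are 5.80 within 0.5 kb and 4.09 at 0.5 to 1 kb.

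The single strongest peak (chr1:24612563-24613273, fold 32, height 5302) lay over the pseudogene Gm10222, and its local background was already 36.6 times the genome-wide level. The next lay within the spans of Cmss1 and Filip1l (chr16:57391362-57391773, fold 30.7) and of Chl1, a neural adhesion gene (chr6:103649071-103649382, fold 29.8). Of the 10 strongest, 8 lay inside a gene's span besides the pseudogene, among them Zc3h7a, Cdk8, Lars2, Gm5165, Gm51425 and Gm30821, and 1 lay 109 kb from the nearest gene, Gm8797. The longest peak (chr17:39843142-39846744, 3603 bp) reached into Rn18s-rs5, the RefSeq entry of the lncRNA row Gm42418, and its background was 134 times the genome-wide level. Whether reads that match more than 1 place in the genome piled up at the strongest and longest peaks was not tested. The other 4 of the 5 longest lay by Tubb3, over Gm6410, at the start of Ube2d3 and 4930539J05Rik, and over 4930556M19Rik, at 1784 to 2295 bp. Genes with the most peaks over their span were Pdzd2 (33 peaks over 380 kb, 13.1 ± 2.05 CPM), Dst (25, 237 ± 11.6 CPM), Sox5 (25, 111 ± 5.28 CPM), Arhgap26 (24) and Adamts12 (23, 262 ± 15.8 CPM). Pdzd2 and Adamts12 lie in the region of raised background described below.

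The share of protein-coding genes with a peak at the start followed the read level. Among protein-coding genes with a listed start it was 1.61% at 0 counts (80 of 4979), 5.46% up to 0.1 CPM, 18.9% from 0.1 to 1, 66.7% from 1 to 10, 85.9% from 10 to 100, 89.5% from 100 to 1000 and 92.9% above 1000 CPM (39 of 42). The main step was thus between 0.1 and 10 CPM, with little change above. For lncRNAs the share was 6.24% at 0 counts, 55.8% from 1 to 10 CPM and 66.0% from 10 to 100 CPM. Above 100 CPM it was 50% (4 of 8 lncRNAs), too few to place it above or below the others. Genes are not independent replicates, and the shares are a description.

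Exceptions ran both ways. Of 1590 protein-coding genes at or above 100 CPM with a listed start, 166 had no peak within 1 kb. Besides Ccnb1ip1 these included Hist1h4n and Hist1h4m, the receptor genes Fgfr2 (1624 CPM) and Ddr2 (732 ± 38.5 CPM), Hspg2 and the protocadherin gene Fat1 (593 ± 13.3 CPM). Whether an unlisted start of these genes has a peak was not tested. In the other direction, Dpf3, a subunit of a chromatin remodeller, and Sun3, a nuclear envelope gene, had start peaks of fold 10.5 and 9.93 and no counts in any library.

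Starts with a peak had more CpG. Of all listed promoters, 300 bases from 250 before the start to 50 after it, 11154 had a peak within 1 kb and 21697 had none. The median GC content was 61.3% with a peak and 49.0% without, and the median number of CpG in 300 bases was 21 and 4. The letters GGGCGG, on either strand, occurred in 65.8% of promoters with a peak, 20.2% without and 35.7% of all. CCAAT, on either strand, occurred in 39.7% and 36.2%, and TATAAA, on either strand, in 6.58% and 17.2%. None of the strings contains another, and a match is a description, not a bound site.

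The marker genes differed in how open their starts were, and 3 of them have a promoter in the RefSeq table of GRCm38.p6. The sequences are printed for these 3, 5′ to 3′ on the gene's strand with every CpG in capitals, because their peaks and CpG content differ. They are chr15:13173626-13173925 (minus strand) for Cdh6, chr1:20618008-20618307 (minus) for Pkhd1 and chr19:44756656-44756955 (plus) for Pax2.
Cdh6 promoter: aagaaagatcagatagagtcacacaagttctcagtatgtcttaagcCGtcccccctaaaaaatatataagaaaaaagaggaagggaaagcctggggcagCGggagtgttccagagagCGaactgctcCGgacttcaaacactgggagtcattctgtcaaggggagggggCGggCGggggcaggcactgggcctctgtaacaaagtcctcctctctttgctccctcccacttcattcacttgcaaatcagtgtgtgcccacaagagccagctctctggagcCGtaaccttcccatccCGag
Pkhd1 promoter: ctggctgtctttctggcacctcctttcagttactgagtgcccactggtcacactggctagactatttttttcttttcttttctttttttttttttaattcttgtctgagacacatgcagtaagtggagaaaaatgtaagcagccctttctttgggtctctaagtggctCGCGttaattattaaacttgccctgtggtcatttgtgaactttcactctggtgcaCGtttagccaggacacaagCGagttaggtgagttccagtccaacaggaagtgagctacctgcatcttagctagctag
Pax2 promoter: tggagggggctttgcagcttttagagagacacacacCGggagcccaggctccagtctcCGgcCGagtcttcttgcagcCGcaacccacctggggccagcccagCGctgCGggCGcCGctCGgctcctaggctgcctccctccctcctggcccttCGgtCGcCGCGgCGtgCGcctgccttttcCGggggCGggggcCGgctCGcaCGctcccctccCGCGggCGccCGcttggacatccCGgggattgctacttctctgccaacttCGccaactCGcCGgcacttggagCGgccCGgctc

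Cdh6 had the most peaks of the 4. Over its span and 10 kb to each side lay 17 peaks, 10.1 per 100 kb. The strongest was at its start (chr15:13172359-13174075, 1717 bp, fold 6.94, −log10 q of 310, height 662), with its summit 42 bp from the start. The other 16 had folds of 1.83 to 4.04. The printed promoter holds 8 CpG and 53% GC, below the median of promoters with a peak, and contains GGGCGG on one of its strands.

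Pkhd1 had 2 peaks over a span of 580 kb. The nearer one (chr1:20619415-20619697, fold 5.63) had its summit 1.49 kb upstream of the start, beyond the 1 kb used here, so its start was counted as having no peak although the gene had 241 CPM. Its promoter holds 4 CpG, like the median of promoters without a peak, and 43.3% GC. None of the 3 letter strings occurs in it. Pax2 had 4 peaks, all weak. The one at its start (chr19:44756239-44756615, fold 3.13) had its summit 404 bp from the listed start, while the promoter is rich in CpG (30, 71.7% GC). Cxadr had 3 peaks over its span, at chr16:78301268-78301874 (fold 3.78), chr16:78302714-78302949 (fold 3.87) and chr16:78317937-78318423 (fold 8.5). Of the 4 markers, the order by read share (Cdh6, Cxadr, Pkhd1, Pax2) was thus not the order of the strongest peak by fold, which was Cxadr, Cdh6, Pkhd1, Pax2. This holds for fold only, which is relative to the local background. The highest −log10 q was 310 for Cdh6, 28.7 for Cxadr, 17.9 for Pkhd1 and 8.49 for Pax2, the order of read share. The greatest heights were 662, 49, 44 and 45, in the same order of genes.

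Peaks of Cdh6 stood on a raised background. For each peak the caller's fold and p gave the local background, expressed here as times the genome-wide level. The series holds no control library, so this background comes from the same reads and can include those of the peak and its neighbours. The local background was 4.75 to 21 times for the peaks of Cdh6 (median 8.65), 1.00 to 1.55 for Pkhd1, 1.08 to 1.33 for Cxadr and 1.46 to 3.04 for Pax2. All 17 Cdh6 peaks were taller than the median peak (53 to 662 against 33). The start peak had a fold above the upper quartile of all peaks and 1 other a fold of 4.04, while the other 15 had folds below the lower quartile. Over the genome, 23.2% of peaks were at the genome-wide level and the median was 1.28 times.

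The raised background came in blocks. Of 1731 windows of 1 Mb with at least 5 peaks, whose median was 1.19 times, 13 had a median above 3. They were on chromosome 15 between 8 and 17 Mb (8 windows, 3.41 to 9.23 times, with none at 14 to 15 Mb) and on chromosome 5 between 139 and 145 Mb (5 windows, 3.10 to 4.45 times). The edge on chromosome 15 was sharp, with 1.31 times within 100 kb of Cplane1 and 6.34 times within 100 kb of its neighbour Nipbl.

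**Figure D5:**
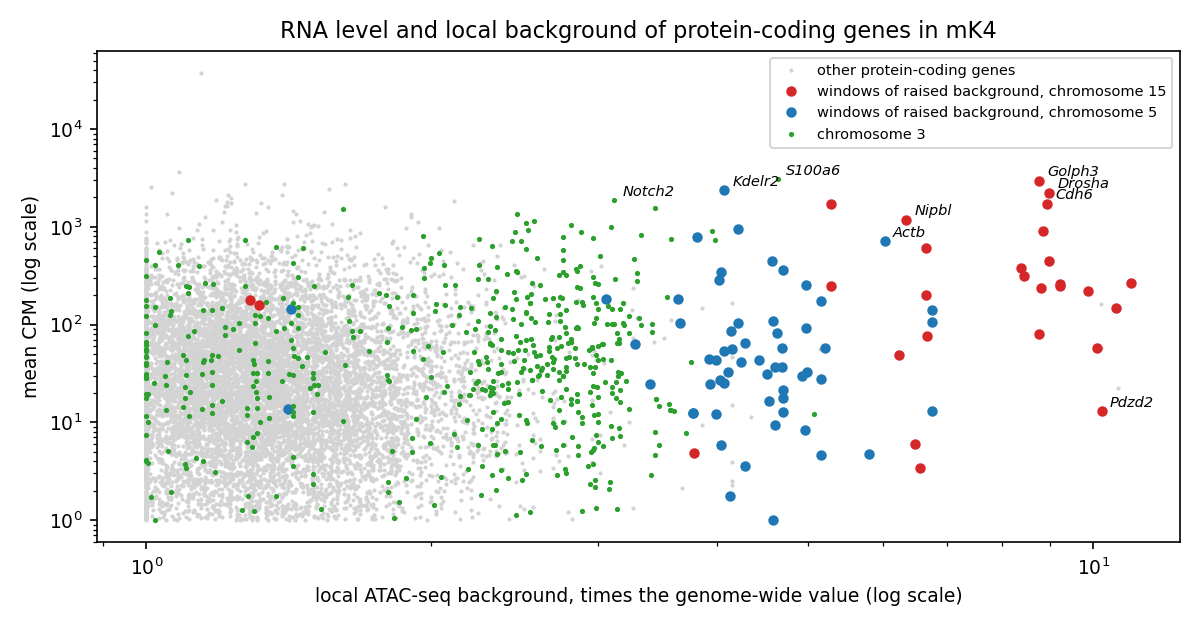
Mean CPM of protein-coding genes of at least 1 CPM (log axis) against the median local ATAC-seq background of peaks within 100 kb, as times the genome-wide level (log axis), 1 point per gene. Genes in the windows of chromosome 15 (red) and chromosome 5 (blue) lie mostly to the right, with Golph3, Drosha and Cdh6 high and Pdzd2, at 13.1 CPM, low, and genes of chromosome 3 (green) lie between.

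Several of the genes with the most reads lay in these blocks. On chromosome 15 they were Golph3, Drosha, Cdh6, Lmbrd2 (1727 ± 62.5 CPM), the cohesin loader Nipbl (1186 ± 44.6 CPM) and the glutamate transporter Slc1a3 (916 ± 8.39 CPM). On chromosome 5 they were Kdelr2, the G protein gene Gna12 (940 ± 53.6 CPM), the kinase gene Lmtk2 (777 ± 49.5 CPM) and Actb. Of 36 protein-coding genes in the chromosome 15 windows, 20 (55.6%) had a mean of at least 100 CPM, and of 79 in the chromosome 5 windows 18 (22.8%) did, against 9.23% of 21163 other genes. The median over genes at 1 CPM or more was 242 CPM, 43.3 CPM and 23.3 CPM, in that order. A gene was placed by the middle of its span, so some genes at a window's edge had little raised background within 100 kb. Among them were Nup155 (177 CPM, 1.29 times) and Cplane1 (157 CPM, 1.31 times) on chromosome 15, and Trrap (143 CPM, 1.42 times) on chromosome 5. Low genes were there too: Pdzd2 at 13.1 CPM and the pigment cell transporter Slc45a2 at 0.297 CPM. The 115 genes held 2.81 ± 0.00831% of protein-coding counts.

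Across all protein-coding genes with peaks within 100 kb, the share at or above 100 CPM was 7.55% where the local background was at the genome-wide level, 11.4% up to 1.5 times, 10.2% from 1.5 to 2, 13.6% from 2 to 3, 20.1% from 3 to 5 and 47.9% above 5 times (23 of 48 genes). Below 2 times there was thus no steady order. Chromosome 3, whose peaks had a median of 1.91 times and which holds Notch2 and S100a6, had 169 of 583 genes of at least 1 CPM at or above 100 CPM (29.0%) and a median of 41.3 CPM, against 16.6% and 22.8 CPM on the other chromosomes together. Chromosomes 19 and 8, at 1.68 and 1.57 times, had medians of 24.6 and 23.1 CPM. Extra copies of DNA and more accessible chromatin cannot be told apart in 1 ATAC-seq library without a DNA control, and the part of either in the read levels of Cdh6 and its neighbours was not tested.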

How the data were processed

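RNA was measured in 3 mK4 libraries made from total RNA after removal of ribosomal RNA, strand-specific per the labels' protocols, and open chromatin in 1 mK4 ATAC-seq library. The expression table holds raw counts deposited by the authors for gene, mature miRNA and circular RNA rows, and its mK4 columns were matched to the samples by line name and number. The submitters' processing notes name the build mm10 and, among other tools, MACS3, HTSeq 2.0.2 and STAR 2.7.10a. The sources used here do not say how miRNAs and circular RNAs were counted, with what strand setting, or how peaks were filtered. The peak list holds the fold enrichment ratio and −log10 p and q values deposited by the authors, called on the single library.

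Counts were divided by the total of their class (CPM) and summarised as mean ± SD over 3 libraries. There is 1 line and 1 condition, so no group was compared and no test was run. Dispersions came from edgeR 4.0.16 with an intercept only, TMM and DESeq2 1.42.0 size factors served as other scalings, and DESeq2 was used for nothing else. Summit height and local background of each peak were solved from its fold and −log10 p under the caller's Poisson model, to within 0.005, for all 34710 peaks on the main chromosomes, and the procedure was checked on simulated peaks. Gene positions and promoters came from RefSeq on GRCm38.p6, which matched 21282 of 21896 protein-coding rows. The promoter table lacks chromosome 18 and some genes, Cxadr among them, and lists a start for 16843 protein-coding rows. Genes without a listed start and peaks of chromosome 18 are left out of statements on starts. On the other chromosomes each peak was placed by its distance to the nearest listed start, so peaks at unlisted starts count as farther away. Lengths were used only for rows without introns.

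Named features were the 20 protein-coding and 10 other rows of highest mean CPM, the 4 marker genes, the 3 highest members and those at 0 of each gene list, the 15 miRNAs and 10 circular RNAs of highest mean, the 10 highest and 5 lowest CVs at or above 100 CPM, the 10 strongest and 5 longest peaks, the 5 genes with most peaks, and peaks within 10 kb of the markers. Some items that this rule names are not reported here. Other genes, such as Jag1, Adnp, Epo, Dpf3 and those in windows of raised background, were named after their values were seen. The members and lists were chosen with earlier results of these data known. A count of 0 allows up to 3 counts, 0.0205 to 0.0223 CPM in gene rows, for counting error only. Replicate libraries differed beyond sampling noise, with median chi-square values per gene of 12.1 to 18.0, so none was taken as a copy of another.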

Additional observations from a re-analysis of the deposited data

How the results depend on the processing

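No paired analysis was possible because the labels give a single RNA group. Of 82 alternatives over 19 results, 50 moved the value by less than the replicate spread or kept the count within 1.5 times, and 32 did not. Among the former, the levels of Cdh6, Cxadr, Pkhd1 and Pax2 kept their size under TMM and DESeq2 scaling. Without the 1 CPM filter 26917 genes had a count. Among protein-coding genes only, without mitochondrially encoded ones, the top 10 held 7.35% and the top 100 held 19.8% of counts. Leaving out each replicate gave a median CV of 11.7 to 14.5% for genes, 8.80 to 17.1% for miRNAs (8.80% without replicate 1) and 27.7 to 39.7% for circular RNAs (27.7% without replicate 3). These CVs rest on 2 libraries each, and a median CV over 2 libraries tends to lie below one over 3. A fall below the main value thus does not by itself mark a replicate as odd. At 100 or more counts the medians were 12.2%, 10.4% and 18.6%, and with no filter 25.8%, 53.9% and 173%. The order of genes against miRNAs in overall CV thus depends on the filter. As CPM of all rows together, miR-21a-5p had 10405. A −log10 q of at least 10 left 18958 peaks and a fold of at least 5 left 15496. Within 0.5 and 2.5 kb in place of 1 kb, 24.0% and 32.7% of peaks lay near a start, and start peaks were found at 87.7% and 91.4% of genes at or above 100 CPM, 64.7% and 70.3% of genes at 1 to 10 CPM, and 1.00% and 3.33% of genes at 0. With −log10 q of at least 10 these shares were 72.8%, 49.7% and 0.723%. Chosen after seeing the data, a threshold of 2 times in place of 3 gave 69 windows of raised background with a median of 30.0 CPM, and the medians at 4 times and with peaks over 1 kb from a start only were 57.1 and 52.7 CPM, against 64.1 CPM. The cause was not tested. The order per kb of coding length was not run, since no source used here gives coding lengths. Depth was 6725 to 9439 counts per library for circular RNAs, of which 5 rows had a mean of at least 100 counts.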
